A study of Mus musculus with 64 samples.

Results

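Suz12 was mapped in mouse B cells after 24 h and after 12 h of stimulation with CpG, and the comparison covers 6 of the 64 samples of the series, 3 at 24 h and 3 at 12 h. They were chosen by the antibody label Suz12 and the time labels, and the 3 unstimulated (0 h) Suz12 libraries were used beside them to estimate the spread. All groups were CD23+ B cells from the spleen of female F1 mus x cast mice, a hybrid bred from C57BL/6 mothers heterozygous for an Xist deletion and M. m. castaneus fathers. Stimulated cells received 1 µM CpG, a DNA that engages the receptor TLR9, for 24 or 12 h, and the 0 h cells received none. The labels do not say which animals inherited the deletion, and they call the replicates biological without tying a replicate number to an animal, so p-values measure the spread between these samples. The assay was CUT&RUN, in which an antibody brings a nuclease to its target and the released DNA is sequenced. Each sample had 1 list of peaks, called on the Cast allele, and the analysis was limited to the 19 autosomes.

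Suz12 is a core subunit of Polycomb repressive complex 2 (PRC2), the enzyme that methylates histone H3 at lysine 27 to give H3K27me3. The complex is known to gather at CpG-rich promoters of genes that are kept silent, above all the transcription factors and signalling proteins of embryonic development. Ring1B is the catalytic subunit of Polycomb repressive complex 1 (PRC1), which places ubiquitin on histone H2A (H2AK119Ub) and often lies at the same sites. H3K27ac marks active promoters and enhancers, and H3K9me3 marks another kind of silent chromatin, found at repeats and heterochromatin.

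Promoter sequences show the kinds of site compared. Of 31365 promoters in the RefSeq table of GRCm38.p6 (mm10), each 300 bases from 250 before to 50 after a gene's start, 366 had a peak in all 3 libraries of 24 h and in 0 of 3 of 12 h, and 23 had the converse. The first 3 sequences are promoters of the 24 h kind and the last 3 of the 12 h kind, in each case those whose genes had the smallest p. CG, the dinucleotide counted on both strands at once because it reads the same on either strand, is in capitals.
Msx1: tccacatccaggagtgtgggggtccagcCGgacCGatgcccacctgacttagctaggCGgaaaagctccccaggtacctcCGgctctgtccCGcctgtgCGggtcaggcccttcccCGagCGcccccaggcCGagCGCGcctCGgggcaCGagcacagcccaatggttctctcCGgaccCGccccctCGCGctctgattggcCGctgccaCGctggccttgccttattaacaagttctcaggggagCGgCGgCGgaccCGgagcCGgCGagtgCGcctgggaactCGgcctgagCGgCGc
Slc18a3: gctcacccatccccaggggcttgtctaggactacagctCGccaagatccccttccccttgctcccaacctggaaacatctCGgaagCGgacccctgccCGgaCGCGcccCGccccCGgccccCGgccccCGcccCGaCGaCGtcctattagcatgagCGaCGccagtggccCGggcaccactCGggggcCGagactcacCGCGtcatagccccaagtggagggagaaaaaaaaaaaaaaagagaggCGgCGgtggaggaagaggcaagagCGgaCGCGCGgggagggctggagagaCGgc
Ptf1a: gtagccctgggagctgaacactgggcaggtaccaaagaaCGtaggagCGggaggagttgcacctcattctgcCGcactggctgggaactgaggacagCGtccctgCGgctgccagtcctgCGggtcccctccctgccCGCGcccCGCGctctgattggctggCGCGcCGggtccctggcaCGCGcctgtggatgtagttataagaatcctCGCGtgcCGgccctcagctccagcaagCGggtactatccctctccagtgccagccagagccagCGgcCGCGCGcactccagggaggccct
Pilra: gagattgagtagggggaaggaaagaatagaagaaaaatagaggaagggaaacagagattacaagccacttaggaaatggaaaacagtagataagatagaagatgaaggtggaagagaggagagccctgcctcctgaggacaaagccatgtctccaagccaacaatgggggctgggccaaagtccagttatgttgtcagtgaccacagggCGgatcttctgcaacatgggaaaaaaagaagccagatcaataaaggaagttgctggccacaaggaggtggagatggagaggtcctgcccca
Malat1: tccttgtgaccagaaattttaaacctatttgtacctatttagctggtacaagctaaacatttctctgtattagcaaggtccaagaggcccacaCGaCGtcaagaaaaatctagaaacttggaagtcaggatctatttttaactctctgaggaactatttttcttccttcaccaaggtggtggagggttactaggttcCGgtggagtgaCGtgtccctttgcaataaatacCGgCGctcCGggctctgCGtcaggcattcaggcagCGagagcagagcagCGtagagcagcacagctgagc
Vmn2r111: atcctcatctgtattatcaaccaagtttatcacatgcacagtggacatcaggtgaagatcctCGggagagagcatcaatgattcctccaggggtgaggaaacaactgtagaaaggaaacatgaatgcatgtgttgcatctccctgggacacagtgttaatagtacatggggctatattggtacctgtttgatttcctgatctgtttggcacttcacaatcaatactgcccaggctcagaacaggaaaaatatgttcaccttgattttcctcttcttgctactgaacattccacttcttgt
The promoters of Msx1 (chr5:37824536-37824835, minus strand), Slc18a3 (chr14:32464801-32465100, minus strand) and Ptf1a (chr2:19445413-19445712, plus strand) held 29, 27 and 23 CG. Those of Pilra (chr5:137836229-137836528, minus strand) and Vmn2r111 (chr17:22573224-22573523, minus strand) held 1 each, and that of Malat1 (chr19:5802623-5802922, minus strand) held 10. Msx1 and Ptf1a encode developmental transcription factors and Slc18a3 the transporter that loads acetylcholine into vesicles. Pilra encodes a receptor of myeloid cells, Malat1 an abundant nuclear RNA and Vmn2r111 a pheromone receptor of a large family of similar genes. CG occurs at least once in 94.7% of all promoters, with a median of 7. Over the whole classes the median was 20 CG in the 366 promoters of the 24 h kind and 17 CG in the 23 of the 12 h kind, so the low counts of Pilra and Vmn2r111 are not typical of their class.

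The 6 lists were of like size but not alike in place. They held 27845, 26799 and 27126 peaks at 24 h, against 25173, 28790 and 26191 at 12 h. The caller setting named in the file names (SEACR, non-normalized, top 0.01, stringent) keeps a fixed top share of signal blocks, so peak number and length do not measure how much Suz12 was bound. The autosomal length covered was 48.9, 63.0 and 61.6 Mb at 24 h and 72.5, 59.2 and 71.7 Mb at 12 h, and the groups overlapped (log2 difference -0.23, exact permutation p = 0.3, 2-sided). Signal was shallow in every list: the median highest coverage of a peak was 5 to 6 at both times. Read depth per library is unknown. The names of the 12 h Suz12 lists carry a letter b that those of 0 and 24 h and of Ring1B do not; no label says what it marks, and it cannot be told apart from time. In these bulk samples a change in the share of cells with Suz12 at a site and a change in Suz12 per cell cannot be told apart.

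Libraries of 24 h resembled each other more than libraries of 12 h did. The bases covered in both of 2 lists, divided by those covered in either, were 0.113 to 0.135 among the 24 h lists, against 0.0659 to 0.0783 among the 12 h lists. Between a 24 h and a 12 h list the value was 0.0602 to 0.107, with a median of 0.0843. The 12 h lists thus shared no more with each other (median 0.0682) than with the 24 h lists. Overlap between 24 h and 0 h lists had a median of 0.109, against 0.0897 between 12 h and 0 h lists. Much of each list was private to its library, which limits every comparison below, and replicate 1 of 12 h had the lowest overlap with the 24 h lists.

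**Figure D1:**
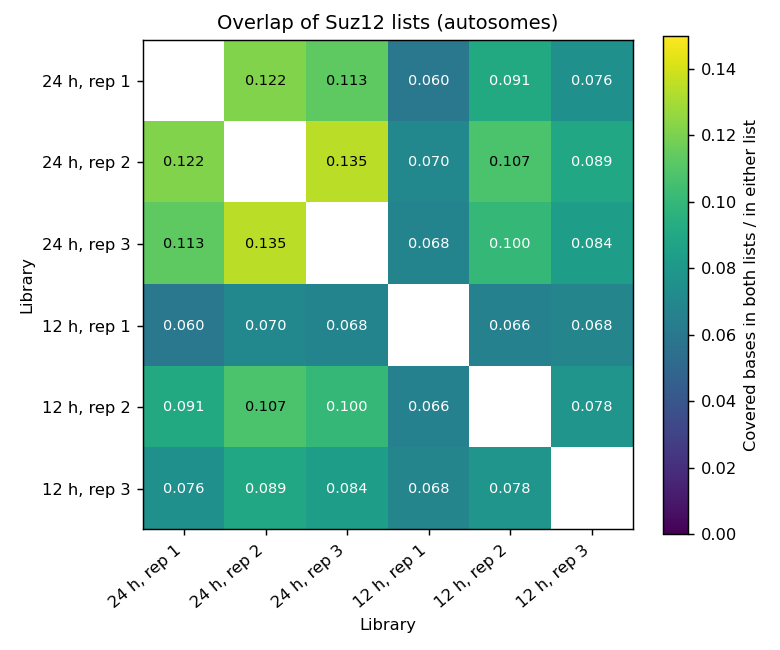
Overlap of each pair of Suz12 lists on the autosomes, as bases covered in both lists over bases covered in either; rows and columns are the 6 libraries and colour gives the value. The 3 cells among 24 h libraries are 0.113 to 0.135 and the 3 among 12 h libraries 0.0659 to 0.0783.

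Regions present in at least 2 of 3 libraries numbered 12672 (22.2 Mb) at 24 h and 10425 (18.9 Mb) at 12 h. Of the 24 h regions 28.7% touched a 12 h region by at least 1 base, and of the 12 h regions 35.9% touched a 24 h region. Requiring all 3 libraries left 4721 regions at 24 h and 2275 at 12 h, of which 58.5% touched a 24 h region of the same kind. Of the regions with a peak in 3 of 3 libraries, 960 at 24 h had no peak in any 12 h library, and 249 at 12 h had none in any 24 h library. Leaving out 1 library of a time, which then needs both remaining libraries, moved these counts by more than 1.5 times for each of the 6 libraries: to 6828 to 7904 regions at 24 h and to 4667 to 5569 at 12 h.

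Regions seen at both times touched promoters and Ring1B more often than regions not seen at the other time. Regions of 24 h and of 12 h not seen at the other time differed in what surrounded them. Not seen means touching no region present in at least 2 of 3 libraries of the other time, so a peak in 1 library there was allowed. Of the 9037 regions of 24 h not seen at 12 h, 20.6% touched a promoter, 54.0% touched H3K27me3 and 32.4% touched Ring1B regions of 24 h. Of the 6682 regions of 12 h not seen at 24 h, 7.15% touched a promoter, 23.0% touched H3K27me3 and 17.2% touched Ring1B. With H3K27me3 regions of 12 h in place of 24 h the shares were 38.0% of the 24 h regions not seen at 12 h and 10.2% of the 12 h regions not seen at 24 h. H3K9me3 had the opposite order. It was touched by 2.15% of the 24 h regions not seen at 12 h. Of the 12 h regions not seen at 24 h, 12.3% touched it. That was close to regions seen at both times, at 10.6% of those of 24 h and 9.16% of those of 12 h. H3K9me3 regions covered 10.7% of autosomal bases, a measure unlike the share of regions touched by at least 1 base. H3K27ac differed less, at 20.6% of the 24 h regions not seen at 12 h and 16.3% of the 12 h regions not seen at 24 h. The 3635 regions of 24 h seen at 12 h touched a promoter in 41.3% of cases and Ring1B in 78.9%, and the 3743 regions of 12 h seen at 24 h in 38.3% and 78.7%.

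Regions at the 100 Hox and other developmental genes listed below followed the same split. There were 85 (0.94%) among the 24 h regions not seen at 12 h and 1 (0.015%) among the 12 h regions not seen at 24 h. More were shared between times, with 107 among the 24 h regions seen at 12 h and 151 among the 12 h regions seen at 24 h. Such regions were 1.52% of all 24 h regions and 1.46% of all 12 h regions. The 5 longest regions with a peak in 3 of 3 libraries of 24 h and 0 of 3 of 12 h lay near Msx1, Irx2, Nhlh2, Grhl2 and Gm13889, and each was covered entirely by H3K27me3 at 24 h. The longest (chr5:37821754-37825478, 3725 bases) spans the start of Msx1. Irx2, Nhlh2 and Grhl2 also encode transcription factors of development. The 5 longest of the converse kind lay near Gatd3a, Kcnq3, Ostn and Tpmt and at a site on chromosome 4 with no gene within 2 kb, and H3K27me3 covered 0% of each at 24 h and at 12 h. Kcnq3 encodes a potassium channel, Ostn a secreted peptide of muscle and bone and Tpmt an enzyme that methylates thiopurines. The region near Ostn lay wholly in H3K27ac at both times, and 17.2% of the one near Gatd3a did at 24 h.

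The same shift showed in every library when the covered length was set against chromatin mapped with the other antibodies, using 1 set of regions for all 6 lists (covered in at least 2 libraries of that antibody at 24 h). The share of Suz12-covered length in H3K27me3 regions, divided by the share of the autosomes in them (10.5%), was 3.57, 4.16 and 3.52 at 24 h, against 2.00, 2.80 and 2.29 at 12 h. For H2AK119Ub the ratios were 5.33, 6.35 and 5.37 at 24 h, against 2.91, 4.44 and 3.58 at 12 h. For Ring1B they were 13.9, 15.1 and 13.6 at 24 h, against 7.19, 12.3 and 9.64 at 12 h. In all 3 sets each 24 h library lay above each 12 h library, and replicate 1 of 12 h was lowest. The lists thus held more H3K27me3, H2AK119Ub and Ring1B chromatin than the autosomes do at both times, and more at 24 h. Most of each list lay outside it: H3K27me3 regions held 37.0% to 43.7% of the covered length at 24 h, against 21.0% to 29.4% at 12 h, and Ring1B regions 19.3% to 21.5% at 24 h, against 10.2% to 17.5% at 12 h.

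H3K9me3 regions showed the reverse, and H3K27ac regions no separation. Ratios for H3K9me3 were 0.673, 0.433 and 0.696 at 24 h, below the share of the genome, against 1.33, 0.932 and 1.11 at 12 h, close to it. For H3K27ac they were 3.87, 4.83 and 4.14 at 24 h and 2.84, 4.31 and 3.79 at 12 h, and the groups overlapped. In each of the 6 libraries the H3K27ac ratio was above the H3K27me3 ratio. The fold of the geometric means was 1.60 for H3K27me3, 1.58 for H2AK119Ub, 1.49 for Ring1B, 0.528 for H3K9me3 and 1.19 for H3K27ac. Exact permutation tests over the 6 libraries gave p = 0.1 (adjusted over the 5 sets p = 0.125) for the first 4, the smallest p that 3 against 3 allows, and p = 0.4 for H3K27ac. With regions of 12 h in place of 24 h the log2 difference was 0.91 for H3K27me3, against 0.68 with regions of 24 h, and 0.30 for Ring1B, against 0.58. With replicate 1 of 12 h omitted the Ring1B difference was 0.38. The highest signal of the weakest peak kept was 2 to 3 in every list.

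**Figure D2:**
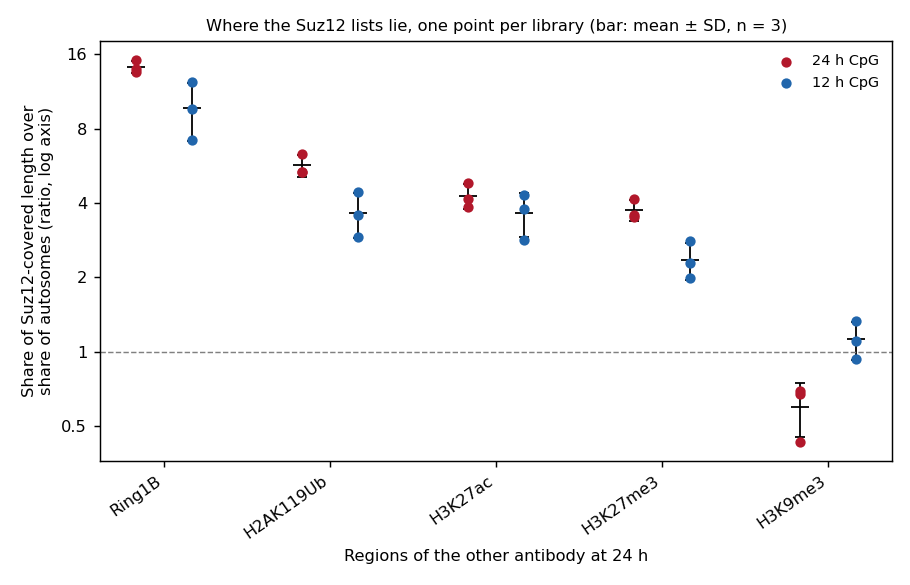
Share of the Suz12-covered autosomal length lying in regions of each other antibody at 24 h, divided by the share of the autosomes in those regions, on a log axis. Points are libraries, bars mean ± SD (n = 3), and the dashed line is the genome share; 24 h lies above 12 h without overlap for Ring1B, H2AK119Ub and H3K27me3 and below it for H3K9me3.

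Suz12 peaks were also placed more often at gene starts at 24 h. Of all peaks, 12.2%, 17.6% and 14.9% touched a promoter at 24 h, against 7.91%, 12.0% and 11.2% at 12 h. Means were 14.9% ± 2.69 at 24 h and 10.4% ± 2.18 at 12 h (SD, n = 3 each), a difference of 4.53 percentage points, and the groups did not overlap (exact permutation p = 0.1, 2-sided, the smallest possible). At 0 h the shares were 25.5%, 16.0% and 13.8%, and 2 of the 3 24 h values lay within that range.

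Promoters were divided by their CG count and by the marks at them at 24 h. Classes set by marks of 24 h can favour 24 h in a comparison of times. H3K27me3 regions held 259 Mb at 24 h and 96.5 Mb at 12 h. A division by marks of 12 h was not made, so the size of that tilt is unknown. The division, and the limits of at least 15 CG for CpG-rich (35.2% of promoters) and under 5 for CpG-poor (37.7%), were chosen after a first look at the data. The 2824 CpG-rich promoters with H3K27me3 and no H3K27ac, the classical PRC2 targets, had a Suz12 peak in 43.5% to 57.4% of cases at 24 h, against 15.6% to 33.4% at 12 h. The 285 CpG-rich promoters with both marks had one in 50.2% to 68.1% at 24 h, against 26.3% to 48.8% at 12 h. In both classes the libraries of the 2 times did not overlap. In the 4123 CpG-rich promoters with H3K27ac alone they overlapped, at 29.6% to 43.7% at 24 h and 18.4% to 37.6% at 12 h. The 9084 CpG-poor promoters with neither mark had the opposite order without overlap, at 1.79% to 2.23% at 24 h and 2.40% to 3.39% at 12 h.

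Read across all 3 times, the order of the times was not alike in the means of active and silent promoters. CpG-rich promoters with H3K27ac alone averaged 63.7% at 0 h, 28.95% at 12 h and 36.4% at 24 h. Those with H3K27me3 alone averaged 44.2% at 0 h, 24.3% at 12 h and 50.0% at 24 h. The 0 h libraries spread widely (49.2% to 86.4% in the first class and 31.9% to 61.9% in the second), and the difference between the classes was not tested. Among the 366 promoters (309 genes) seen in 3 of 3 libraries of 24 h and 0 of 3 of 12 h, 72.1% had H3K27me3, 66.7% were CpG-rich and the median count was 20 CG. Among the 23 of the converse kind, 13.0% had H3K27me3, 52.2% had H3K27ac, 56.5% were CpG-rich and the median count was 17 CG. The marks in all promoter counts of this paragraph are those of 24 h, also for these 23. Marks of 12 h were not counted at promoters. Of all promoters 24.5% had H3K27me3, and 592 had a Suz12 peak in all 6 libraries.

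**Figure D3:**
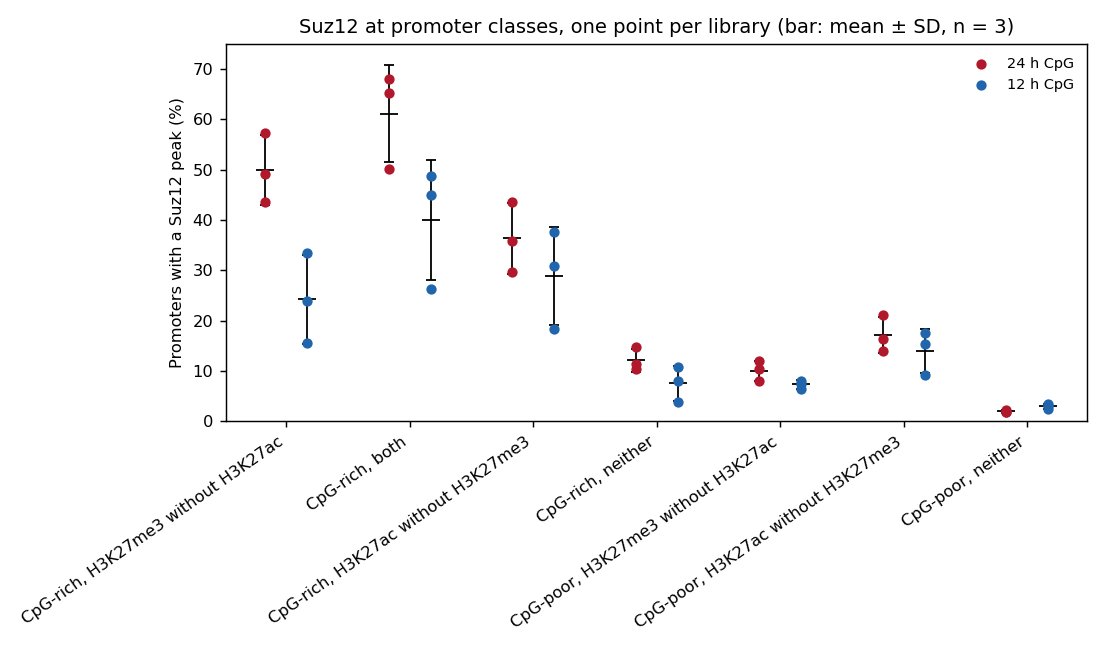
Percent of promoters with a Suz12 peak in 7 classes set by CG count and by H3K27me3 and H3K27ac at 24 h; points are libraries and bars mean ± SD (n = 3). CpG-rich promoters with H3K27me3 had a peak in 43.5% to 57.4% of cases at 24 h and 15.6% to 33.4% at 12 h, while CpG-poor promoters with neither mark were at 1.79% to 3.39% over both times.

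Gene by gene, coverage was the percent of a gene's region (the gene body with 2 kb on each side) lying under Suz12 peaks. Of 17862 genes with a peak in at least 3 of the 9 Suz12 libraries, 0 passed an adjusted p of 0.05 in either direction (0.0% called; limma, Benjamini-Hochberg over all 17862). At an unadjusted p under 0.05, 715 genes (4.0%) were higher and 386 (2.16%) lower at 24 h. With coverage divided by each list's autosomal coverage the counts were 1121 higher and 360 lower, and the median difference over all genes tested was 0.74 in place of 0.09 percentage points. Leaving out a 12 h library gave 430 higher and 502 lower (replicate 1 omitted), 727 higher and 664 lower (replicate 2 omitted) or 540 higher and 529 lower (replicate 3 omitted). With any 24 h library left out the counts were 564 to 939 higher and 194 to 220 lower, so the balance of directions over all genes depended on the scaling and on the 12 h libraries. On a log2(percent + 1) scale 136 genes passed, 110 higher (0.616%) and 26 lower (0.146%). Of the 136 genes, 134 were at 0% in all 3 libraries of 24 h or of 12 h, and 2 were Hox or other listed developmental genes. The values that follow are therefore differences that did not pass the test, except where said.

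Developmental transcription factors made up the clearest group. Over the 61 non-Hox developmental regulators, mean coverage was 59.6%, 65.5% and 65.0% in the 24 h libraries, against 28.0%, 46.7% and 39.8% in the 12 h libraries. All 24 h libraries lay above all 12 h libraries. The mean over all 33073 gene regions was 4.32%, 6.18% and 5.48% at 24 h, against 4.32%, 4.82% and 5.02% at 12 h. The 24 h minus 12 h difference was above 0 for 59 of the 61 and below 0 for none, with a median of 21.3 percentage points, against a median of 0.09 over all genes tested. In 36 of 61 the groups did not overlap and 24 h was higher, where 3.52% of all gene regions did so. By unadjusted p under 0.05, 26 of the 59 tested were higher and 0 lower. Of all genes tested 4.0% were higher and 2.16% lower. At 0 h the list averaged 50.3%, 39.6% and 30.8%. The list was written with earlier results on these data known, so its direction is not independent evidence.

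Msx1, a homeobox factor of limb and face, had the smallest p of all genes tested. Its region (gene body chr5:37820491-37824585) was covered 86.8%, 98.7% and 96.7% at 24 h, against 21.3%, 0% and 0% at 12 h and 0%, 13.1% and 0% at 0 h. The difference was 87.0 percentage points (SE 10.2, limma adjusted p = 0.104, higher in 3 of 3 libraries). When coverage was divided by the list's autosomal coverage, Msx1 alone passed (limma adjusted p = 0.0243; 0.0056% called). H3K27me3 covered 96.8% ± 6.36 (SD, n = 4) of the region at 24 h and 78.4% ± 9.72 (SD, n = 3) at 12 h, and Ring1B 44.5% at 24 h and 5.86% at 12 h. Msx1 thus had little Suz12 in the 12 h lists while H3K27me3 covered most of it at that time.

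Other members of the list behaved alike in direction and differed in how much was seen at 12 h. Gsc, a homeobox factor of the embryonic organizer, was covered 97.3%, 84.2% and 96.5% at 24 h, against 0%, 46.9% and 20.6% at 12 h. Sox2, a factor of stem cells and the early nervous system, was covered 67.7%, 100% and 94.9% at 24 h, against 0%, 46.8% and 43.3% at 12 h. Six3, needed for the forebrain and eye, was covered 77.3%, 87.0% and 75.6% at 24 h, against 0%, 33.5% and 37.6% at 12 h. In all 3 genes replicate 1 of 12 h had no peak and the other two 12 h libraries had part of the region. Neurog1, a factor of sensory neurons, was covered 65.2%, 67.6% and 44.9% at 24 h, against 4.44%, 0% and 0% at 12 h. Isl1, a LIM homeobox factor of motor neurons and heart, was covered 19.2%, 26.1% and 17.8% at 24 h and 0% in all 3 libraries of 12 h and of 0 h (limma adjusted p = 0.137). These last 2 genes were near empty in every 12 h library.

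Some members were nearly full or empty at both times. Neurod1, a factor of neurons and pancreatic islets, was covered 0% in all 6 libraries. Nkx6-1, a factor of motor neurons and pancreas, was covered 100% in each 24 h library, against 92.2%, 100% and 99.1% at 12 h. Members with a peak in at least 2 of 3 libraries numbered 59 of 61 at 24 h and 47 of 61 at 12 h, where 36.5% of all gene regions had one at 24 h and 32.1% at 12 h. Members covered by at least 90% in all 3 libraries numbered 14 of 61 at 24 h and 2 of 61 at 12 h; over all gene regions they numbered 66 at 24 h and 19 at 12 h. Atoh1, a factor of cerebellum and inner ear, varied widely within a time, with 0%, 25.7% and 77.2% at 24 h and 0% in each 12 h library.

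**Figure D4:**
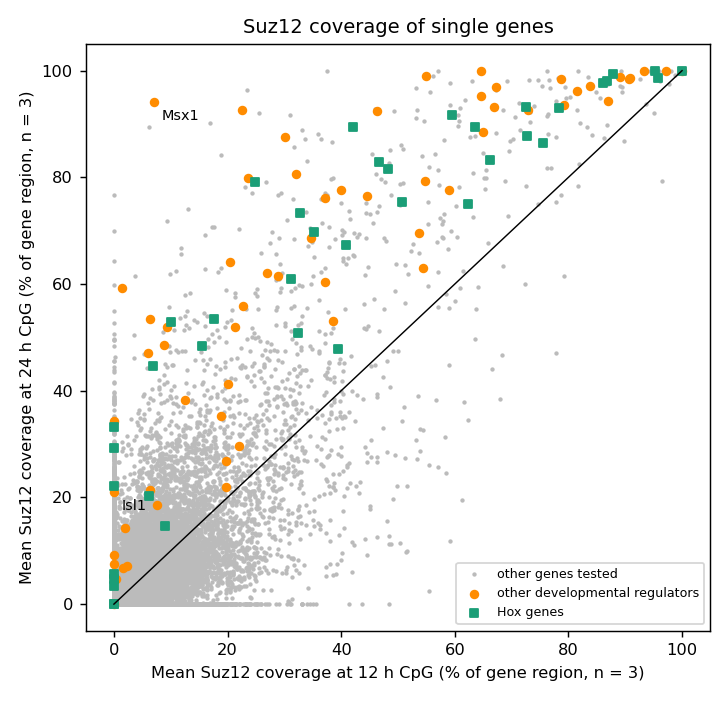
Mean Suz12 coverage of each gene tested at 24 h (vertical axis) against 12 h (horizontal axis), in percent of the gene region, n = 3 libraries each; the line marks equal values. Orange circles (other developmental regulators) and green squares (Hox genes) lie on or above the line, and grey points are the other genes tested.

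The 39 Hox genes, which set position along the body axis and stand in 4 clusters, gave mean coverage of 59.2%, 66.0% and 59.9% at 24 h, against 29.4%, 53.6% and 39.4% at 12 h. The times did not overlap. The difference was above 0 for 36 members and below 0 for none, with a median of 18.4 percentage points. Groups did not overlap in 13 of 39, all with 24 h higher (3.52% of all gene regions). By unadjusted p under 0.05, 7 of 36 tested were higher and 0 lower. Of all genes tested 4.0% were higher and 2.16% lower. Regions of neighbouring Hox genes overlap (that of Hoxa3 spans Hoxa4, for example), so the same peaks count for several members and these are not separate observations. In contrast to the other regulators, the Hox mean at 24 h, 61.7% ± 3.73, was near that at 0 h, 59.3% ± 11.0, with 40.8% ± 12.2 at 12 h (SD, n = 3 each). That contrast between the lists was not tested.

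Within the clusters the difference was uneven. The Hoxb cluster (chr11:96194316-96368254) was covered 44.9%, 50.0% and 39.9% at 24 h, against 11.5%, 36.9% and 24.9% at 12 h. The Hoxa cluster (chr6:52155367-52260880) was covered 48.6%, 51.9% and 47.8% at 24 h, against 41.2%, 45.4% and 38.1% at 12 h, a much smaller gap. Hoxc (chr15:102921131-103036856) had 70.1%, 74.3% and 77.2% at 24 h, against 32.0%, 66.0% and 43.0% at 12 h. Hoxd (chr2:74668225-74765142) had 64.9%, 74.4% and 59.6% at 24 h, against 35.4%, 61.5% and 42.4% at 12 h, where the highest 12 h library passed the lowest 24 h library. In Hoxa, Hoxb and Hoxc the times did not overlap, and replicate 2 was the highest 12 h library in all 4 clusters. H3K27me3 covered more of each cluster than Suz12 did at 24 h, for example 84.2% to 97.8% of Hoxb.

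Single Hox genes ranged from full to empty. Hoxa9 was covered 100% in all 6 libraries, and Hoxa5 and Hoxb1 0% in all 6. Hoxb4 was covered 15.1%, 57.0% and 27.6% at 24 h and 0% in each 12 h library (limma adjusted p = 0.587), with 29% to 32.4% at 0 h. Hoxb6 was covered 73.4%, 79.2% and 67.3% at 24 h, against 22.4%, 27.5% and 48.2% at 12 h (limma adjusted p = 0.623). Both had peaks in every 0 h library, with 35.2% to 79.4% of the Hoxb6 region covered there. Hoxb1 had no Suz12 peak although H3K27me3 covered its region entirely at 24 h.

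Ligands of development and cell cycle inhibitors stood between. The 28 signalling ligands of development (Wnt, Fgf, Bmp and hedgehog proteins) averaged 18.3%, 22.9% and 16.8% at 24 h, against 6.48%, 14.6% and 7.03% at 12 h, and the groups did not overlap in 8 of 28, all with 24 h higher (3.52% of all gene regions). The gene Wnt10a, a Wnt ligand of skin and tooth, was covered 28.7%, 23.7% and 22.5% at 24 h and 0% in each 12 h library (limma adjusted p = 0.513), while its 0 h values were 34.5%, 29.6% and 16.6%. Its difference of 25.0 percentage points was 3.98 with stricter lists. The 7 inhibitors of cyclin-dependent kinases averaged 38.2%, 35.2% and 40.9% at 24 h, against 16.4%, 28.3% and 27.3% at 12 h. Those regions also carried H3K27ac over 31.6% of their length on average at 24 h, beside H3K27me3 over 33.1%. Cdkn2a, which encodes p16 and p19 and is a long-known Polycomb target, was covered 85.8%, 100% and 95.0% at 24 h, against 33.9%, 67.7% and 75.9% at 12 h (limma adjusted p = 0.678). By unadjusted p under 0.05, 5 of 19 tested ligands (Wnt1, Wnt9a, Wnt10a, Shh and Ihh) and 2 of 5 tested inhibitors (Cdkn2a and Cdkn2c) were higher and 0 were lower, where 4.0% of all genes tested were higher and 2.16% lower.

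The genes of PRC2 itself showed no common direction. Among 11 PRC2 subunits and partners the difference was above 0 for 4 and below 0 for 7, with a median of -0.29 percentage points and a mean of 2.74, and 0 of 11 tested had an unadjusted p under 0.05. Suz12 itself was covered 0% in each 24 h library, against 5.98%, 1.58% and 0% at 12 h. Ezh2, the catalytic subunit, was covered 0%, 3.28% and 3.36% at 24 h, against 10.2%, 3.29% and 0% at 12 h. Eed, which binds H3K27me3, was covered 7.74%, 10.0% and 12.4% at 24 h, against 4.92%, 8.53% and 10.4% at 12 h. All 3 overlapped between times. Epop, a PRC2 partner, had the smallest p of the list and was covered 36.6%, 87.9% and 40% at 24 h, against 0%, 38.6% and 0% at 12 h (limma adjusted p = 0.777). Phf19, another partner, was covered 0%, 11.9% and 8.52% at 24 h and 0% in each 12 h library (limma adjusted p = 0.777). Both overlapped as well. Among 21 PRC1 subunits and partners, 2 of 15 tested (Bmi1 and Pcgf1) were higher by unadjusted p, where 4.0% of all genes tested were. Bmi1, a PRC1 subunit, was covered 39.5%, 39.4% and 38.2% at 24 h, against 0%, 9.35% and 5.86% at 12 h and 65.0%, 26.8% and 47.5% at 0 h (limma adjusted p = 0.587).

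Genes active in B cells had low coverage beside the developmental lists, and few single members had an unadjusted p under 0.05. The mean over all gene regions was 5.33% at 24 h and 4.72% at 12 h, so coverage of these lists was near or above it. The 22 B cell identity genes averaged 5.22%, 6.78% and 3.65% at 24 h and 5.43%, 7.11% and 6.69% at 12 h, and 0 of 18 tested had an unadjusted p under 0.05. For the 25 genes of TLR9 and NF-kB signalling, the pathway that CpG engages, the median difference was 0 and 0 of 22 tested had an unadjusted p under 0.05. The 25 B cell activation genes averaged 7.68%, 7.55% and 12.4% at 24 h, against 4.56%, 5.47% and 6.00% at 12 h, so the list means did not overlap. By unadjusted p 1 of 18 tested was higher, near the share of all genes tested (4.0%). That gene was Junb, an AP-1 factor, covered 24.8%, 31.5% and 31.1% at 24 h and 0% in each 12 h library (limma adjusted p = 0.777), with 87.4%, 54.1% and 43.3% at 0 h. H3K27ac covered 97.0% of the Junb region at 24 h and H3K27me3 none.

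The 14 plasma cell and germinal centre genes had low coverage that did not overlap between times, 3.99%, 6.83% and 3.19% at 24 h, against 1.58%, 1.41% and 1.25% at 12 h. Edem1, which clears misfolded proteins from the endoplasmic reticulum, was covered 11.6%, 4.77% and 6.09% at 24 h and 0% in each 12 h library (limma adjusted p = 0.777). Edem1 had peaks in every 0 h library, at 8.74%, 5.87% and 9.30%. By unadjusted p 1 of the 9 tested members (Edem1) was higher and 0 lower, where 4.0% of all genes tested were higher.

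The remaining lists differed in how many members had separate groups. None of 30 cell cycle genes and 1 of 23 ribosome biogenesis genes had groups that did not overlap. Of the 20 interferon-stimulated genes with a region in the gene table, 1 had 24 h above 12 h and 2 had it below. Among the 20 neuronal genes, with a mean H3K27me3 coverage of 10.8% at 24 h, 1 lay above and 7 below without overlap, where 3.52% of all gene regions lay above and 2.31% below; by unadjusted p 1 of 17 tested was higher (Grin1) and 1 lower (Scn2a). Scn2a, a sodium channel of neurons, was covered 0%, 1.96% and 1.50% at 24 h, against 3.69%, 2.76% and 5.70% at 12 h (limma adjusted p = 0.776). The list mean was 2.07% at 24 h and 2.15% at 12 h. Grin1, a glutamate receptor gene with H3K27me3 over 90.2% of its region, had the opposite order, at 19.4%, 20.8% and 14.4% at 24 h, against 0%, 7.39% and 5.50% at 12 h (limma adjusted p = 0.777).

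Markers of other cells that a spleen preparation could hold were also listed. Of 19 T cell, 16 myeloid and 13 erythroid genes none had groups that did not overlap. Over all gene regions 3.52% lay above and 2.31% below without overlap, so a count of none in such short lists is near that share. In the H3K27ac lists, read as a check of the cell label, 9 of 10 B cell markers had a peak in at least 2 of 3 libraries at 24 h and 10 of 10 at 12 h, Cr2 being the one not seen at 24 h. Of 8 T cell markers 3 (Cd3d, Cd3g and Lck) had such a peak at both times, and Cd3e, Cd4, Cd8a, Zap70 and Bcl11b had none in any library. Of 8 myeloid markers 2 (Csf1r and Itgam) did at 24 h and 0 at 12 h, and of 5 erythroid markers 0 did at either time; Cd14, Lyz2, Mpo, Elane and Cebpa had none in any library. Mean H3K27ac coverage by library was 64.9% to 89.5% for the B cell markers at 24 h and 80.1% to 89.0% at 12 h, and the T cell markers had 6.55% to 7.38% at 24 h, against 7.52% to 10.3% at 12 h. The myeloid markers had at most 4.1% at 24 h, against at most 4.07% at 12 h. For the erythroid markers it was 0% at 24 h and 0% to 7.75% at 12 h. The part of other cells in the Suz12 differences was not tested.

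**Figure D5:**
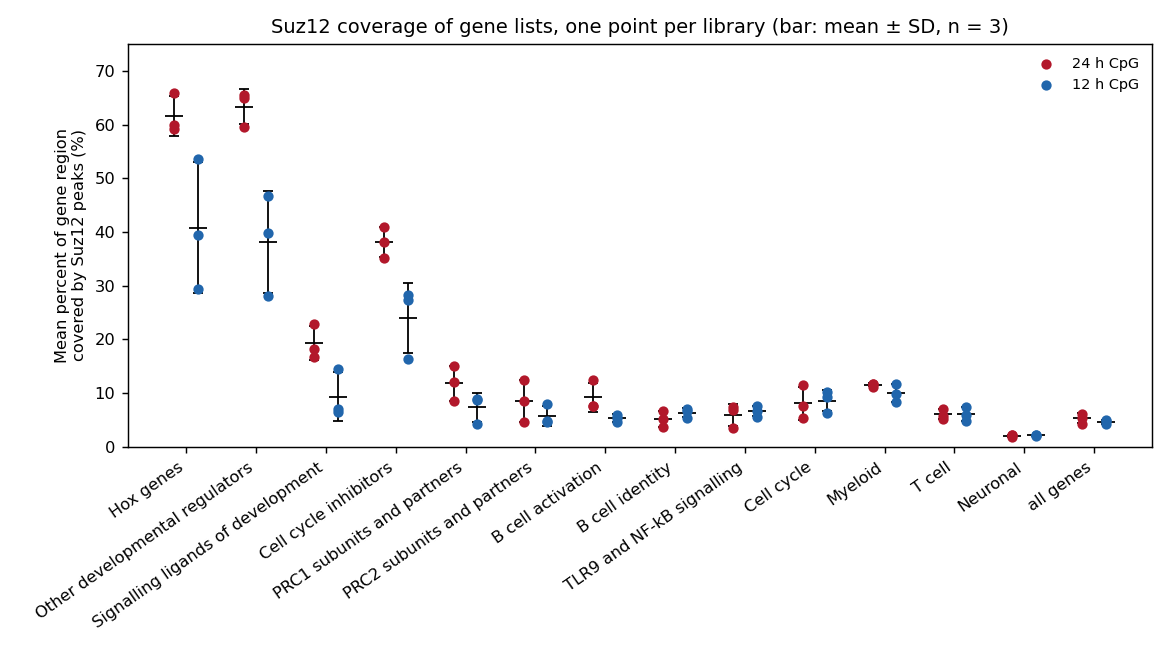
Mean percent of gene region covered by Suz12 peaks over the members of 13 gene lists and over all genes; points are libraries, bars mean ± SD (n = 3), with 24 h left of 12 h. The 24 h libraries lie above the 12 h libraries for Hox genes (59.2% to 66.0% against 29.4% to 53.6%) and other developmental regulators (59.6% to 65.5% against 28.0% to 46.7%). They also do so for signalling ligands of development, cell cycle inhibitors and B cell activation genes. The times overlap for B cell identity, TLR9 and NF-kB signalling, cell cycle and T cell genes.

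The genes with the smallest p, given as values that did not pass, were of another kind in each direction. After Msx1 the 7 genes with the smallest p among those higher at 24 h were Slc18a3, Cistr, Ddit4l, Gpr17, Tril, Apof and Gm13889. The limma adjusted p was 0.137 for each. Slc18a3 was covered 39.7%, 47.3% and 61.4% at 24 h and 0% in each 12 h and 0 h library. Ddit4l, an inhibitor of mTOR signalling, was covered 21.4%, 27.7% and 28.3% at 24 h and 0% in each 12 h and 0 h library. Tril, an accessory protein of TLR4, was covered 33.0%, 37.7% and 53.6% at 24 h and likewise 0% elsewhere. H3K27me3 covered 100%, 86.5% and 97.4% of these 3 regions at 24 h, so all lay in Polycomb chromatin. Gpr17, a receptor of oligodendrocyte precursors, had 17.0%, 20.1% and 15.9% at 24 h and 0% at 12 h and 0 h, with H3K27me3 over 69.9%.

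The long noncoding RNA Cistr and the predicted protein-coding gene Gm13889 were instead covered at 0 h too. Cistr had 94.3%, 84.9% and 89.0% at 24 h, against 0%, 18.7% and 0% at 12 h, and 100%, 73.7% and 51.7% at 0 h. Gm13889 had 60.6%, 90.0% and 59.3% at 24 h, against 0% in each 12 h library, and 65.1%, 44.3% and 37.2% at 0 h. Apof, an apolipoprotein gene whose region overlaps that of Stat2, was the exception in chromatin, with 49.0%, 32.3% and 55.2% at 24 h, 0% in each 12 h library and H3K27me3 over 0% at both times. For Apof and Stat2 the same peaks cannot be assigned to 1 gene.

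The 8 genes with the smallest p among those lower at 24 h were Oas1f, Gm35588, Lxn, Rp1l1, Clca2, Pilra, Pfas and Ces1g. Each was covered 0% in all 3 libraries of 24 h. Where a group is at 0% its spread is also 0, which favours a small p, so the shared 0% is not a separate result. Oas1f, of the oligoadenylate synthetase family, was covered 26.2%, 20.5% and 17.1% at 12 h and 0% in each 0 h library (limma adjusted p = 0.137). Lxn, which encodes the carboxypeptidase inhibitor latexin, was covered 26.6%, 15.9% and 25.4% at 12 h and 0% in each 0 h library (limma adjusted p = 0.141). Pfas, an enzyme of purine synthesis, was covered 11.3%, 7.82% and 8.57% at 12 h (limma adjusted p = 0.334). Coverage at 12 h in the other 5 genes was between 5.06% (Rp1l1) and 20.0% (Ces1g). H3K27me3 covered 0% of 5 of the 8 regions at 24 h and more than that in Oas1f (97.4%), Rp1l1 (20.1%) and Clca2 (5.83%). Oas1f, Clca2, Pilra and Ces1g have close paralogs, and how reads with several matches were treated is not stated in the sources used here.

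Ring1B libraries, made with the same caller setting, allowed the 24 h minus 12 h difference of Suz12 to be set against that of Ring1B. The Ring1B lists of 12 h were unlike in autosomal length, at 101.2, 80.1 and 56.35 Mb, against 76.1, 67.3 and 62.3 Mb at 24 h. That spread limits the comparison. Of 22833 genes, 16 (0.0701%) had an adjusted p under 0.05 for the difference between the antibodies (limma interaction), and 0 did when a peak was required in at least 6 of the 18 libraries (364 higher and 658 lower for Suz12 by unadjusted p under 0.05). The stricter filter drops genes with peaks in few libraries and does not test them again. Slc18a3 and Ddit4l were among the 16: Ring1B covered 0% of both at 24 h and at 12 h, and Suz12 49.5% and 25.8% at 24 h and 0% at 12 h. In both genes every group but Suz12 at 24 h was at 0%, where the spread within a group is also 0. Their calls therefore do not show that the difference was particular to Suz12. No Hox or other listed developmental regulator was among the 16. For these lists Ring1B coverage had the same direction, with Hox means of 50.1% ± 1.60 at 24 h and 25.3% ± 9.09 at 12 h and means of the other developmental regulators of 46.4% ± 2.16 at 24 h and 22.5% ± 6.28 at 12 h (SD, n = 3 each). H3K27me3 means were 84.5% ± 6.69 at 24 h (n = 4) and 53.2% ± 5.82 at 12 h (n = 3) for Hox genes, and 83.8% ± 1.55 at 24 h and 70.5% ± 5.08 at 12 h for the other regulators (SD). H3K27ac covered 0% of both lists at both times.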

How the data were processed

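CUT&RUN libraries of Suz12 at 24 h, 12 h and 0 h (3 each) were compared, with those of 5 other antibodies as context. The authors deposited 1 SEACR peak list per sample in mm10 coordinates. The signal columns of each list, the total and the highest coverage in a peak, were made by the authors with the peak caller named in the file names, and served here only to rank peaks within a list. Per the submitters' processing notes, Trimmomatic 0.32, Bowtie2 2.3.4.1, Picard and deepTools 3.5.1 were used. SEACR's version, the allele rule and the depth are not stated in the sources used here, so no counting interval was computed.

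Autosomal peaks were merged per list with Python 3.11.15 (numpy 2.4.6, pandas 2.3.3, SciPy 1.17.1; figures with matplotlib 3.10.9). Gene positions and promoters came from RefSeq tables of GRCm38.p6, which gave 33073 gene regions. Percent coverage was fitted over all 9 Suz12 libraries with limma 3.58.1 in R 4.3.3 (trend, robust), and the Ring1B contrast over 18; the fit was tested on simulated data. Values of 1 per library were compared by 2-sided exact permutation tests. Alternatives were other flanks, filters, scalings and list lengths, stricter lists (the 50% of peaks with most signal), a replicate block and each library left out.

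Named genes were to be those past the threshold; as none passed, the 8 smallest unadjusted p of each direction are given (predicted models only if protein-coding), with up to 2 members per list, Suz12, Ezh2 and Eed. Other developmental genes were named after their values were seen; genes at regions were named through the longest regions. The comparison and gene lists were chosen with earlier results of these data known. Promoter classes, Hox cluster coverage, counts of genes covered by at least 90%, the marks at region classes and the left-out libraries for regions were chosen after a first look. Values of 3 single genes are not reported here.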

Additional observations from a re-analysis of the deposited data

Results flagged for a closer look

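The 24 h minus 12 h difference in coverage was unlike for Suz12 and Ring1B at 16 of 22833 genes by the limma interaction test (adjusted p under 0.05), and 15 of them are given here for that reason. Values are the Suz12 difference minus the Ring1B difference in percentage points of gene region. In 4 genes Suz12 covered the region at 24 h only and Ring1B at neither time, with 25.8 for Ddit4l, 49.5 for Slc18a3, 20.2 for Nptx2 and 12.9 for LOC115490344. Slc18a3 loads acetylcholine into vesicles, Ddit4l restrains mTOR signalling and Nptx2 is a synaptic pentraxin.

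In 8 further genes Suz12 covered 0% at both times and Ring1B was higher at 24 h, with -36.1 for Ydjc, -51.8 for Gm32126, -14.0 for Btnl2, -27.0 for Pdf, -9.15 for Kctd4, -10.8 for Sult1a1, -6.38 for Gp6 and -19.3 for Gm52354. Btnl2 encodes a butyrophilin. In Gm32865 (-31.1) and Lxn (-22.6) Suz12 covered the region at 12 h only and Ring1B at neither time. In Gm10522 (-69.1) Suz12 was higher at 12 h and Ring1B higher at 24 h. In 14 of the 16 genes 3 of the 4 groups were at 0%, where the spread within a group is also 0, and no gene passed when a peak was required in at least 6 of 18 libraries.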

How the results depend on the processing

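The lower share of 12 h lists in H3K27me3, H2AK119Ub and Ring1B regions and at promoters, and the higher share in H3K9me3 regions, kept their direction under all alternatives run for them, and so did the covered length. With 2 libraries at 1 time the exact test cannot go below p = 0.2. For single genes, 136 passed on the log2(percent + 1) scale, 1 (Msx1) after scaling by autosomal coverage and 0 under the 14 other alternatives. Deviations of same-numbered libraries had correlations of 0.0302, 0.0517 and 0.00657, against -0.0386 to 0.0118 for differently numbered ones. Between lists that share so little, these values cannot settle whether replicate numbers pair the libraries. With a replicate block 0 genes passed. Among the named genes, 16 values passed under an alternative, 15 of them on the log scale. Of the named genes 3 differences changed sign, those of gene Ms4a1 (-0.416 to 12.8 with 1 library left out, negative without replicate 3 of 24 h), gene Fbl (-0.575 with no flank) and gene Ezh2 (-4.55 to 0.568 with 1 library left out, positive without replicate 1 of 12 h); the cause was not tested. The Ring1B contrast gave 15 genes with a replicate block, 29 after scaling, 51 with stricter lists, 18 to 22 with 1 library left out and 0 with a peak needed in 6 of 18 libraries.

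Other values named in the text moved by over 1.5 times in size, and those given here are examples, not a full list. With a 5 kb flank the difference of gene Gm13889 was 34.5 percentage points, against 69.9, and that of gene Slc18a3 was 29.9, against 49.5. The difference of gene Ddit4l was 15.2 with a 5 kb flank and 45.2 with no flank, against 25.8. That of gene Cistr also fell by over 1.5 times with a 5 kb flank. For gene Gpr17 it was 7.61 with no flank, against 17.7. For gene Epop it was 25.4 without replicate 2 of 24 h, against 42.0. The difference of gene Junb was 15.1 with a 5 kb flank and 18.7 with stricter lists, against 29.2. That of gene Cdkn2a was 21.8 without replicate 1 of 12 h, against 34.4. That of gene Hoxb4 was 21.3 without replicate 2 of 24 h, against 33.2.

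Region counts depended on the rule. Regions of 24 h numbered 4721 when 3 of 3 libraries were needed, 6936 with stricter lists and 6828 to 7904 with 1 library left out; regions of 12 h numbered 2275, 4859 and 4667 to 5569. Fewer libraries or peaks enter in each. The share of 24 h regions seen at 12 h was 23.9% with the region's larger part as overlap, 29.5% with lists of equal length, 32.5% with stricter lists and 15.9% to 40.9% with 1 library left out. The share of 12 h regions seen at 24 h was 58.5% with 3 of 3 libraries, and 30.6%, 36.9%, 48.3% and 26.1% to 53.2% in the same settings. The mean difference of the Hox list was 15.2 to 29.8 percentage points and that of the other developmental regulators 20.1 to 34.5. Depth is unknown, and coverage of 5 to 6 at a typical peak limits all of these values.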
